A study of Mus musculus with 3 samples.

Results

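The genes described here are 5 regulators of osteoclasts, the bone-resorbing cells that arise from blood monocytes: Tnfsf11, Tnfrsf11b, Tnfrsf11a, Csf1 and Il34. They were taken by symbol from the platform annotation, which assigned them 11 probe sets, and they are 5 of the 18193 genes with a probe set of 1 symbol. Their signals were read on 3 arrays, 1 for each population of endosteal cells sorted from C57BL/6 mice. All populations came from collagenase-digested fragments of femur and tibia, were gated as CD45(-), CD31(-) and Ter119(-), a gate meant to remove blood, endothelial and erythroid cells, and were then divided by PDGFRa and Sca-1 into PDGFRa(+) Sca-1(+), PDGFRa(+) Sca-1(-) and PDGFRa(-) Sca-1(-) cells. PDGFRa binds platelet-derived growth factor and is found on mesenchymal cells, while Sca-1 is a membrane antigen that immature mesenchymal cells of the mouse often carry. The sources used here give no age, sex, number of animals or pooling, and the label for the source tissue reads bone marrow.

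The values are MAS5 signals, the array maker's summary of a probe set on a linear scale, and they can be compared between arrays for 1 probe set but not between probe sets. Signals under 93.2, the mean of the array medians, were treated as not measured and were raised to that floor before ratios were taken. A ratio against a signal under the floor is given as "at least". A gene was called higher or lower at 2-fold or more. No population had a second array, so none of the ratios has a replicate check and no p-value was computed.

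Osteoclast precursors need a pair of signals from mesenchymal cells. The first is macrophage colony-stimulating factor, the product of Csf1, or interleukin 34, the product of Il34, both of which act through the receptor CSF1R and keep the precursors alive. The second is RANKL, the product of Tnfsf11, which binds RANK, the product of Tnfrsf11a, on the precursor and starts its differentiation. Osteoprotegerin, the product of Tnfrsf11b, is a secreted decoy receptor that binds RANKL and keeps it from RANK. In bone, RANKL is known from osteocytes, hypertrophic chondrocytes, osteoblasts and marrow stromal cells, and osteoprotegerin from osteoblasts and chondrocytes.

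The 250 bases before the start of Csf1 and of Tnfsf11 are shown because these ligands had their highest signals in different populations. They are from RefSeq, build GRCm38.p6, written 5′ to 3′ on the strand of the gene, at chr3:107760470-107760719 for Csf1 and chr14:78308044-78308293 for Tnfsf11, both on the minus strand. Capitals mark motif matches. Of the 5 genes, 3 had an entry in the sequence table used here.
Csf1: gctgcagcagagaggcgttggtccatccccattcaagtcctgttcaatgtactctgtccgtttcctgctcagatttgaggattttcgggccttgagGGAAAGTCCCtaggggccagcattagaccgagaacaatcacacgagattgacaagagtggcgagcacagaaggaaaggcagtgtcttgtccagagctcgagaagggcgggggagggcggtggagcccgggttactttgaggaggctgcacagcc
Tnfsf11: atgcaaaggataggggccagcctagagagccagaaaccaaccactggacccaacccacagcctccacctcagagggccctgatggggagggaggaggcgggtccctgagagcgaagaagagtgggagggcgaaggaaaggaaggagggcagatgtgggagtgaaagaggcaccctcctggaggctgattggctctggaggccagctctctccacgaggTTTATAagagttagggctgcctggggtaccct

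The motifs were chosen with these sequences in view and were searched on both strands. The capitals in the Csf1 promoter match the NF-kB consensus of 10 letters on the opposite strand, at positions -154 to -145 from the start. Those in the Tnfsf11 promoter match TATAAA on the opposite strand, at positions -32 to -27. Of 32851 promoters of the same length, 7.25% held the NF-kB motif and 12.4% held TATAAA. None of the other motifs searched was found in either promoter: TGACTCA (AP-1, in 4.46% of promoters), TGACGTCA (the cAMP response element, 1.55%), TGTGGT (Runx, 14.0%), TTGCNNAA (C/EBP, 9.56%), the Ebf motif (0.779%) and TTCNNNGAA (STAT, 7.02%). Among genes with a promoter in the table, the NF-kB motif was present for 157 of 1353 genes called higher in PDGFRa(+) Sca-1(+) than in PDGFRa(+) Sca-1(-) cells (11.6%), for 131 of 1070 called lower (12.2%) and for 1030 of all 9588 compared (10.7%). A match describes the letters of the window and is not evidence of binding.

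The labels call the cells endosteal, from the inner bone surface. Pdgfra had signals of 12846 in PDGFRa(+) Sca-1(+), 2420 in PDGFRa(+) Sca-1(-) and 586 in PDGFRa(-) Sca-1(-) cells, and the CD45 gene Ptprc and the CD31 gene Pecam1 were under the floor on every array. Ly6a, which encodes Sca-1, is not analysed here, since none of its probe sets carried a symbol of its own. Of 10 osteoblast markers with a probe set, 9 were above the floor in PDGFRa(+) Sca-1(+) cells and 10 in each of the others. Cartilage genes were bright too: Col2a1, the main collagen of cartilage, gave 4096 in PDGFRa(+) Sca-1(+), 26563 in PDGFRa(+) Sca-1(-) and 27518 in PDGFRa(-) Sca-1(-) cells. These markers do not show that the fractions hold cells of the bone surface alone. The signal ratio of the 3′ to the 5′ control probe set of Actb was 4.65 on the PDGFRa(+) Sca-1(+) array, 2.63 on the PDGFRa(+) Sca-1(-) array and 2.99 on the PDGFRa(-) Sca-1(-) array, and its part in the results below was not tested. Different probe sets of 1 gene gave log2 ratios with an SD of 0.60 for PDGFRa(+) Sca-1(+) over PDGFRa(+) Sca-1(-), 0.37 for PDGFRa(+) Sca-1(-) over PDGFRa(-) Sca-1(-) and 0.50 for PDGFRa(+) Sca-1(+) over PDGFRa(-) Sca-1(-); this measures how probes and transcripts differ and says nothing of animals.

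Csf1 was highest in PDGFRa(+) Sca-1(+) cells by each of its 4 probe sets. The brightest, 1460220_a_at, gave 4174 in PDGFRa(+) Sca-1(+), 448 in PDGFRa(+) Sca-1(-) and 566 in PDGFRa(-) Sca-1(-) cells. Probe set 1448914_a_at gave 1079, 287 and 446 in the same populations, and 1425154_a_at gave 1093, 252 and 208. The PDGFRa(+) Sca-1(+) array was above both Sca-1(-) arrays in every case. The last probe set, 1425155_x_at, whose suffix marks probes that may cross-hybridise, gave 1417 in PDGFRa(+) Sca-1(+) and 150 in PDGFRa(+) Sca-1(-) cells and was under the floor in PDGFRa(-) Sca-1(-) cells, at 55.7. By the brightest probe set Csf1 was 9.31-fold higher in PDGFRa(+) Sca-1(+) than in PDGFRa(+) Sca-1(-) cells, and the others gave 3.76-fold, 4.33-fold and 9.47-fold. Against PDGFRa(-) Sca-1(-) cells it was 7.37-fold higher by the brightest probe set and 2.42-fold, 5.26-fold and at least 15.2-fold higher by the others. In bulk RNA, fewer cells expressing a gene and less RNA per cell cannot be told apart.

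Between the Sca-1(-) populations Csf1 was within 2-fold by 3 probe sets, which did not share a direction, and 1425155_x_at gave only a bound. The log2 ratio of PDGFRa(+) Sca-1(-) over PDGFRa(-) Sca-1(-) was -0.34 by the brightest probe set, -0.64 and 0.28 by the next, and at least 0.68 by 1425155_x_at. Among 11855 genes compared between PDGFRa(+) Sca-1(+) and PDGFRa(+) Sca-1(-) cells, 1.41% had a ratio as high as that of the brightest Csf1 probe set; against PDGFRa(-) Sca-1(-) cells the share was 2.23% of 11843.

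Il34 has 1 probe set, and it was dim. It gave 125 in PDGFRa(+) Sca-1(+) cells, against 43.4 in PDGFRa(+) Sca-1(-) and 89.4 in PDGFRa(-) Sca-1(-) cells, so only the PDGFRa(+) Sca-1(+) array was above the floor. Its ratio over each of the others was at least 1.34-fold, a bound that leaves the gene uncalled. Over PDGFRa(+) Sca-1(-) cells the ratio was 2.88-fold with the floor at the 33rd percentile, 2.84-fold without a floor and a pseudocount of 1, and 2.08-fold with a pseudocount of 32, past the threshold in each case. Of the receptors for these ligands, Csf1r, the receptor that both share, gave 158 in PDGFRa(+) Sca-1(+), 191 in PDGFRa(+) Sca-1(-) and 112 in PDGFRa(-) Sca-1(-) cells by its brightest probe set, all within 2-fold of each other. Its 3 probe sets ran from -1.20 to 0.37 on the log2 scale for PDGFRa(+) Sca-1(+) over PDGFRa(+) Sca-1(-) cells. A wider list named alternative partners of all 5 members, not of these ligands alone. Of its 7 genes, 5 could be compared between PDGFRa(+) Sca-1(+) and PDGFRa(+) Sca-1(-) cells. Among them 1 was called higher, Nrp1, 2.48-fold, and 1 lower, Ptprz1, with a median log2 ratio of -0.16. Nrp1 is a semaphorin receptor that was counted in the list, and it is not known as a receptor for these ligands. Of all genes, 14.9% were called higher and 11.3% lower in this comparison. The 4 probe sets of Nrp1 ran from -0.57 to 1.31 on the log2 scale. Sdc1, a proteoglycan named as another IL-34 partner, stayed within 2-fold by its brightest probe set, at 2094, 1652 and 1482 in the same order. Ptprz1, a receptor phosphatase that also binds IL-34, lay under the floor in PDGFRa(+) Sca-1(+) cells, where it was at least 4.44-fold lower than in PDGFRa(+) Sca-1(-) cells. In PDGFRa(+) Sca-1(-) cells Ptprz1 was 2.53-fold higher than in PDGFRa(-) Sca-1(-) cells, at 413 against 164.

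**Figure D1:**
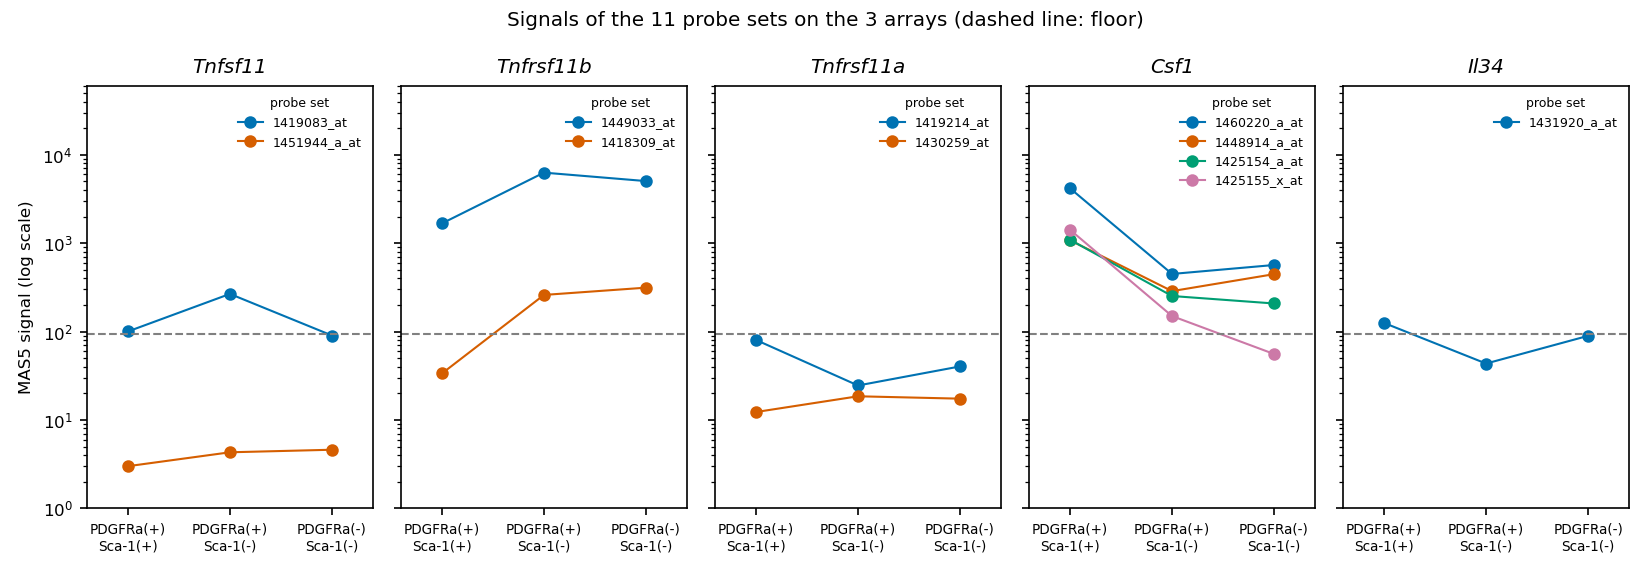
MAS5 signal on a log axis for each probe set of the 5 genes on the 3 arrays, 1 point per array, with the floor of 93.2 as a dashed line; lines only join the points of a probe set. Csf1 is highest in PDGFRa(+) Sca-1(+) cells by all 4 probe sets, Tnfrsf11b is lowest there by both, Tnfsf11 is above the floor by 1 probe set and peaks at 267 in PDGFRa(+) Sca-1(-) cells, and Tnfrsf11a stays under the floor.

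Tnfsf11 had its highest signal in PDGFRa(+) Sca-1(-) cells. Probe set 1419083_at gave 100.2 in PDGFRa(+) Sca-1(+), 267 in PDGFRa(+) Sca-1(-) and 90.2 in PDGFRa(-) Sca-1(-) cells. The PDGFRa(+) Sca-1(+) value lay just above the floor and the PDGFRa(-) Sca-1(-) value just under it, so these arrays could not be ordered. Tnfsf11 was 2.66-fold lower in PDGFRa(+) Sca-1(+) than in PDGFRa(+) Sca-1(-) cells, and at least 2.86-fold higher in PDGFRa(+) Sca-1(-) than in PDGFRa(-) Sca-1(-) cells. Of 11675 genes compared between PDGFRa(+) Sca-1(-) and PDGFRa(-) Sca-1(-) cells, 1.95% had a ratio as high. The other probe set, 1451944_a_at, read 3.0, 4.3 and 4.6 in PDGFRa(+) Sca-1(+), PDGFRa(+) Sca-1(-) and PDGFRa(-) Sca-1(-) cells, far under the floor, and gave no ratio. The pattern of Tnfsf11 thus rests on 1 dim probe set on 1 array. With the floor raised to 256 the log2 ratio of PDGFRa(+) Sca-1(+) over PDGFRa(+) Sca-1(-) cells was -0.059 in place of -1.41, and with the mean over both probe sets it was -0.71. For PDGFRa(+) Sca-1(-) over PDGFRa(-) Sca-1(-) cells the same settings gave 0.059 and 0.76 in place of at least 1.52.

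Tnfrsf11b was lowest in PDGFRa(+) Sca-1(+) cells by both of its probe sets. The brighter, 1449033_at, gave 1672 in PDGFRa(+) Sca-1(+), 6281 in PDGFRa(+) Sca-1(-) and 5039 in PDGFRa(-) Sca-1(-) cells. Probe set 1418309_at was under the floor in PDGFRa(+) Sca-1(+) cells, at 33.6, and gave 260 in PDGFRa(+) Sca-1(-) and 314 in PDGFRa(-) Sca-1(-) cells. The gene was 3.76-fold lower in PDGFRa(+) Sca-1(+) than in PDGFRa(+) Sca-1(-) cells by the brighter probe set and at least 2.79-fold lower by the other. Against PDGFRa(-) Sca-1(-) cells it was 3.01-fold lower by the brighter probe set and at least 3.37-fold lower by the other. The Sca-1(-) populations were within 2-fold of each other, with log2 ratios of 0.32 and -0.27 for PDGFRa(+) Sca-1(-) over PDGFRa(-) Sca-1(-) that differed in sign.

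The levels of Tnfsf11 and Tnfrsf11b cannot be set against each other, since they come from different probe sets, but their changes between arrays can. In PDGFRa(+) Sca-1(+) over PDGFRa(+) Sca-1(-) cells both were lower, and the log2 ratio of Tnfsf11 (-1.41) exceeded that of Tnfrsf11b (-1.91) by 0.50. This difference was 1.85 with the floor at the 67th percentile and 0.99 with the mean over probe sets, against a scatter between probe sets of 0.60. With the dimmer Tnfrsf11b probe set, which enters at the floor in PDGFRa(+) Sca-1(+) cells, the difference was 0.07. For PDGFRa(+) Sca-1(-) over PDGFRa(-) Sca-1(-) cells the difference was 1.20 with the brighter Tnfrsf11b probe set and 1.79 with the dimmer, with Tnfsf11 higher and Tnfrsf11b within 2-fold. For PDGFRa(+) Sca-1(+) over PDGFRa(-) Sca-1(-) cells it was 1.70 and 1.86, with Tnfrsf11b lower and Tnfsf11 near the floor. Each of the last 4 values enters Tnfsf11 at the floor in PDGFRa(-) Sca-1(-) cells, and that for PDGFRa(+) Sca-1(-) over PDGFRa(-) Sca-1(-) cells turned to -0.26 with the floor at the 67th percentile.

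Tnfrsf11a, the receptor, was under the floor on all arrays. Probe set 1419214_at gave 80.3 in PDGFRa(+) Sca-1(+), 24.5 in PDGFRa(+) Sca-1(-) and 40.3 in PDGFRa(-) Sca-1(-) cells, and 1430259_at gave 12.3, 18.5 and 17.4, so no ratio was formed. Of 15 osteoclast markers with a probe set, 10 were above the floor in PDGFRa(+) Sca-1(+) cells, 9 in PDGFRa(+) Sca-1(-) cells and 8 in PDGFRa(-) Sca-1(-) cells. Their summed signals were 20756, 15272 and 18647 in that order. Ctsk and Nfatc1 were the brightest of them on each array and made up most of these sums. The fusion genes Dcstamp and Ocstamp, the calcitonin receptor gene Calcr, the co-receptor gene Oscar and the protease gene Mmp9, all known from mature osteoclasts, were under the floor throughout. Ctsk, the collagen-degrading cathepsin K, was bright at 10800 in PDGFRa(+) Sca-1(+), 4145 in PDGFRa(+) Sca-1(-) and 5077 in PDGFRa(-) Sca-1(-) cells, and Itgb3, an integrin chain, gave 1819, 237 and 67.5. Acp5 gave 428, 256 and 164 in the same order, and Ostm1 gave 2295, 547 and 493. Clcn7, Tcirg1, Car2, Nfatc1 and Csf1r also passed the floor on every array. Atp6v0d2 passed it in PDGFRa(+) Sca-1(+) cells alone, at 126. Of 17 monocyte and macrophage markers, 5 were above the floor in PDGFRa(+) Sca-1(+) cells and 7 in each of the others, with summed signals of 1773, 3309 and 2225. Cd14 was the brightest of these markers on each array. Itgam, Tyrobp, Fcer1g and Aif1 were under the floor on every array, while Cd14, an endotoxin co-receptor, was 5.33-fold lower in PDGFRa(+) Sca-1(+) than in PDGFRa(+) Sca-1(-) cells, at 367 against 1960. Of 10 lymphocyte markers 1, Cd8a, was above the floor. Neutrophil precursor genes did differ between the arrays: 10 of 10 were above the floor in PDGFRa(+) Sca-1(+) and in PDGFRa(+) Sca-1(-) cells, against 2 in PDGFRa(-) Sca-1(-) cells, with summed signals of 3417, 3426 and 679. Their part in the Tnfsf11 and Csf1 ratios was not tested.

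**Figure D2:**
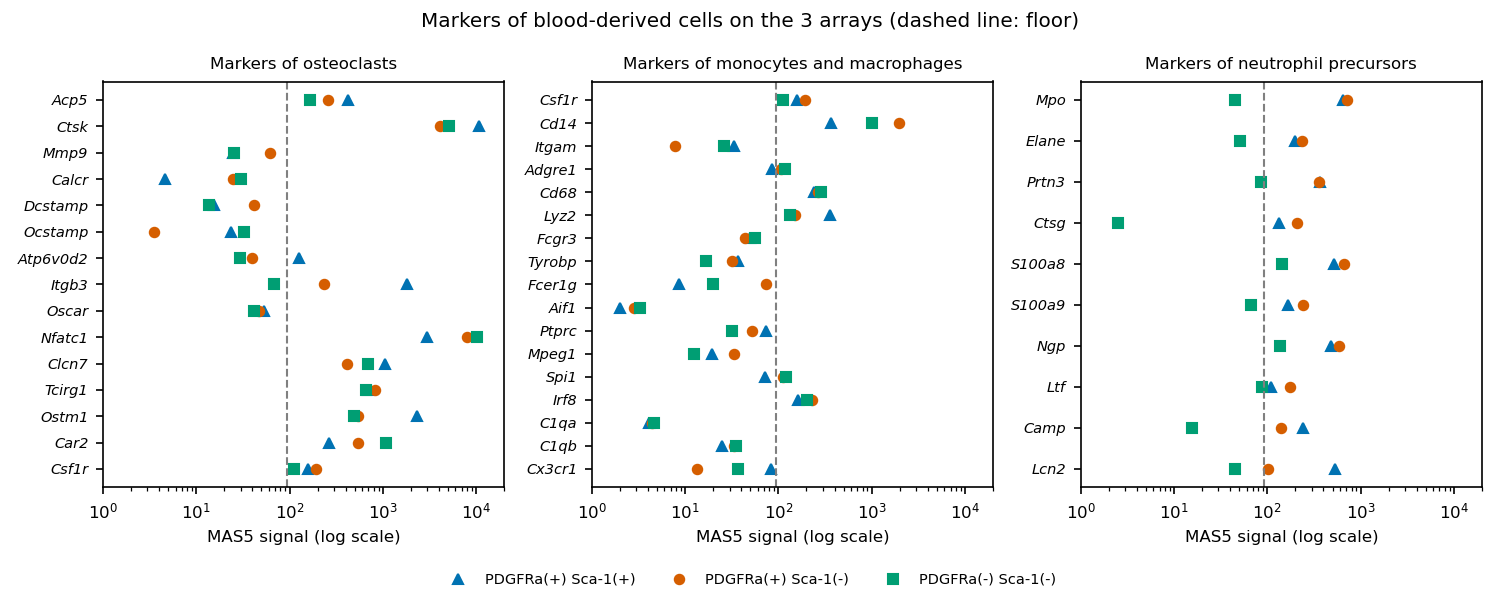
MAS5 signal on a log axis for markers of osteoclasts, monocytes and macrophages, and neutrophil precursors, 1 symbol per array, with the floor as a dashed line. Dcstamp, Ocstamp, Calcr, Oscar and Mmp9 lie under the floor on all 3 arrays, while Acp5, Ctsk and Ostm1 lie above it on all 3. The neutrophil genes are mostly under it in PDGFRa(-) Sca-1(-) cells, where 2 of 10 pass.

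The members' calls were read against those of all genes. Between PDGFRa(+) Sca-1(+) and PDGFRa(+) Sca-1(-) cells 4 of the 5 could be compared: 1 was called higher (Csf1) and 2 lower (Tnfsf11 and Tnfrsf11b), while 26.2% of all 11855 genes were called, 14.9% higher and 11.3% lower. The members' median log2 ratio was -0.49, against 0.07 over all genes compared. This median lies between the ratio of Tnfsf11, -1.41, and that of Il34, a bound entered at 0.42. The Il34 ratio was 1.53 with the floor at the 33rd percentile, so the median depends on the floor. From PDGFRa(+) Sca-1(-) against PDGFRa(-) Sca-1(-) cells 3 could be compared and 1 was called, Tnfsf11, against 10.4% of 11675 genes, 4.82% higher and 5.63% lower. In PDGFRa(+) Sca-1(-) over PDGFRa(-) Sca-1(-) cells the median was 0.32 for the members and -0.03 for all genes. Both there and in PDGFRa(+) Sca-1(+) over PDGFRa(+) Sca-1(-) cells, 3 settings removed the Tnfsf11 call. They were the floor at the 67th percentile, the mean over probe sets and a 3-fold threshold. In PDGFRa(+) Sca-1(+) over PDGFRa(+) Sca-1(-) cells 2 members were then called. With the floor at the 33rd percentile or with either pseudocount, 4 were called there. From PDGFRa(+) Sca-1(+) against PDGFRa(-) Sca-1(-) cells 4 could be compared, with Csf1 called higher and Tnfrsf11b lower, against 26.6% of 11843 genes, 14.5% higher and 12.2% lower. Here the medians were 0.26 and 0.03, and that of the members lies between the bounds of Tnfsf11 (0.10) and Il34 (0.42). These comparisons share arrays and are not independent of each other. When the arrays were scaled to a common median, the median over all genes in PDGFRa(+) Sca-1(+) over PDGFRa(+) Sca-1(-) cells moved to -0.09 (and to -0.07 in PDGFRa(+) Sca-1(+) over PDGFRa(-) Sca-1(-) cells) and the split of called genes turned to 1424 higher and 1643 lower, against 1763 higher and 1340 lower; the members called there stayed 3. The split also turned to 649 higher and 590 lower, against 563 and 657, in PDGFRa(+) Sca-1(-) over PDGFRa(-) Sca-1(-) cells, and to 1472 higher and 1647 lower, against 1713 and 1443, in PDGFRa(+) Sca-1(+) over PDGFRa(-) Sca-1(-) cells.

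**Figure D3:**
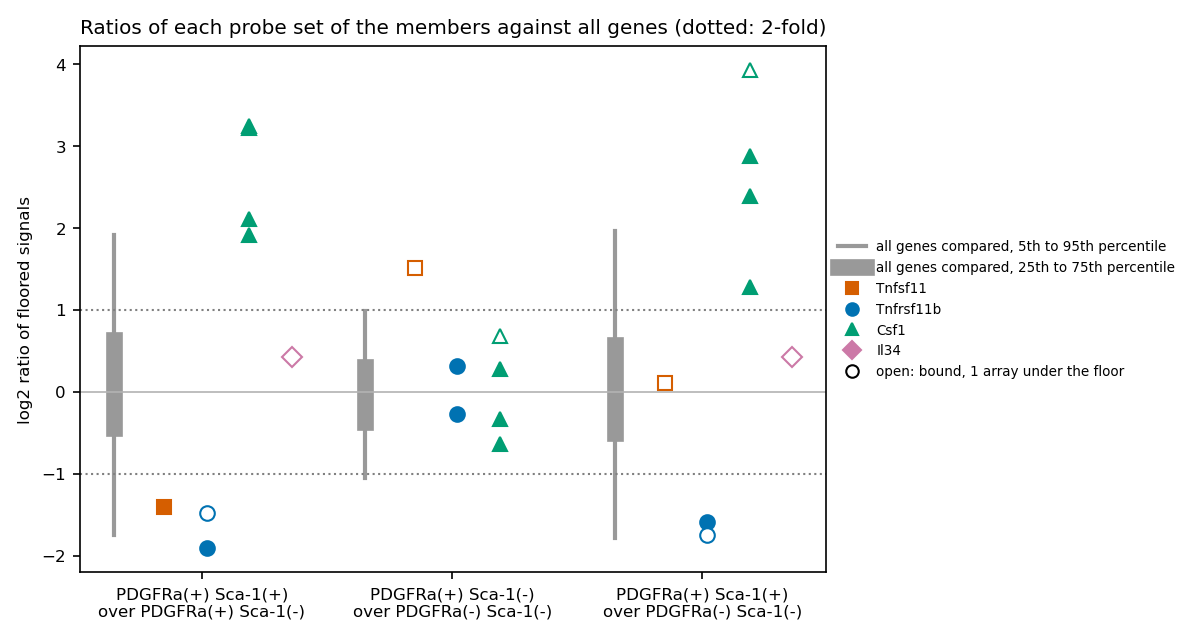
log2 ratio of each probe set above the floor on 1 array or more, for the 3 comparisons, beside the range of all genes compared (thick bar: 25th to 75th percentile; thin bar: 5th to 95th percentile); open symbols are bounds and dotted lines mark 2-fold. A pair of Csf1 probe sets overlaps at 3.22 and 3.24 in the first comparison, Csf1 lies above 1 and Tnfrsf11b below -1 in both comparisons with PDGFRa(+) Sca-1(+) cells, and Tnfsf11 is the member above 1 in PDGFRa(+) Sca-1(-) over PDGFRa(-) Sca-1(-) cells.

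Receptors and factors through which hormones, cytokines and other signals act on Tnfsf11 were read next. Not all of them are receptors, since Creb1 and Stat3 are among them. The counts of this list and of those below stand beside the shares of all genes called. These were 14.9% higher and 11.3% lower for PDGFRa(+) Sca-1(+) over PDGFRa(+) Sca-1(-) cells. They were 4.82% and 5.63% for PDGFRa(+) Sca-1(-) over PDGFRa(-) Sca-1(-) cells. For PDGFRa(+) Sca-1(+) over PDGFRa(-) Sca-1(-) cells they were 14.5% and 12.2%. Of 17 such genes compared between PDGFRa(+) Sca-1(+) and PDGFRa(+) Sca-1(-) cells, 5 were called higher and 4 lower. The median log2 ratio was 0.79, against 0.07 for all genes. The lowest ratios were those of a pair of hormone receptors. Pth1r, the parathyroid hormone receptor, was 25.5-fold lower in PDGFRa(+) Sca-1(+) cells, at 840 against 21462 in PDGFRa(+) Sca-1(-) cells. Vdr, the vitamin D receptor, was 11.8-fold lower, at 106 against 1246. Tlr4, the endotoxin receptor, was 9.48-fold higher, at 1235 against 130, and its relative Tlr2 6.82-fold higher, at 2230 against 327. The oncostatin M receptor Osmr (log2 ratio -0.23) and the TNF receptor Tnfrsf1a (0.87) were within 2-fold. Against PDGFRa(-) Sca-1(-) cells, PDGFRa(+) Sca-1(-) cells had 0 of 17 higher and 2 lower, namely the IL-17 receptor Il17ra (2.21-fold) and Tlr2 (2.17-fold). The median was -0.04, and 0.02 when the arrays were scaled to a common median. Pth1r had a log2 ratio of 0.87 there, at 21462 against 11783. Against the same PDGFRa(-) Sca-1(-) cells, PDGFRa(+) Sca-1(+) cells had 5 higher and 6 lower, and the prostaglandin receptor Ptger4 was among those higher, 4.20-fold.

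Cytokines and enzymes upstream of Tnfsf11 divided in direction. Of 8 compared between PDGFRa(+) Sca-1(+) and PDGFRa(+) Sca-1(-) cells, 3 were called higher and 2 lower, against 14.9% and 11.3% of all genes. The median log2 ratio was -0.45. Il6 was 20.5-fold higher in PDGFRa(+) Sca-1(+) cells, at 8740 against 427, and Il7 at least 2.79-fold higher. Il11, a relative of IL-6 that acts on osteoblasts, was 10.6-fold lower in PDGFRa(+) Sca-1(+) cells, at 238 against 2519, and Lif 3.31-fold lower by the brighter of its probe sets. Between PDGFRa(+) Sca-1(-) and PDGFRa(-) Sca-1(-) cells Il6 was 9.49-fold lower, at 427 against 4055, and Ptgs2, the inducible prostaglandin synthase, 2.03-fold higher, at 15213 against 7481, but under 2-fold after quantile normalization. The other 6 of 8 were not called, and for Osm, Il1b, Ptges and Il7 the ratio was only a bound. Il1a, Tnf and Il17a were under the floor on all arrays. On the array where Tnfsf11 had its highest signal, Il6 had its lowest, and Ptges and Il7 were under the floor. Ptgs2 had its highest signal there, and Osm and Il1b were above the floor only there. The part of these genes in the Tnfsf11 signal was not tested.

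**Figure D4:**
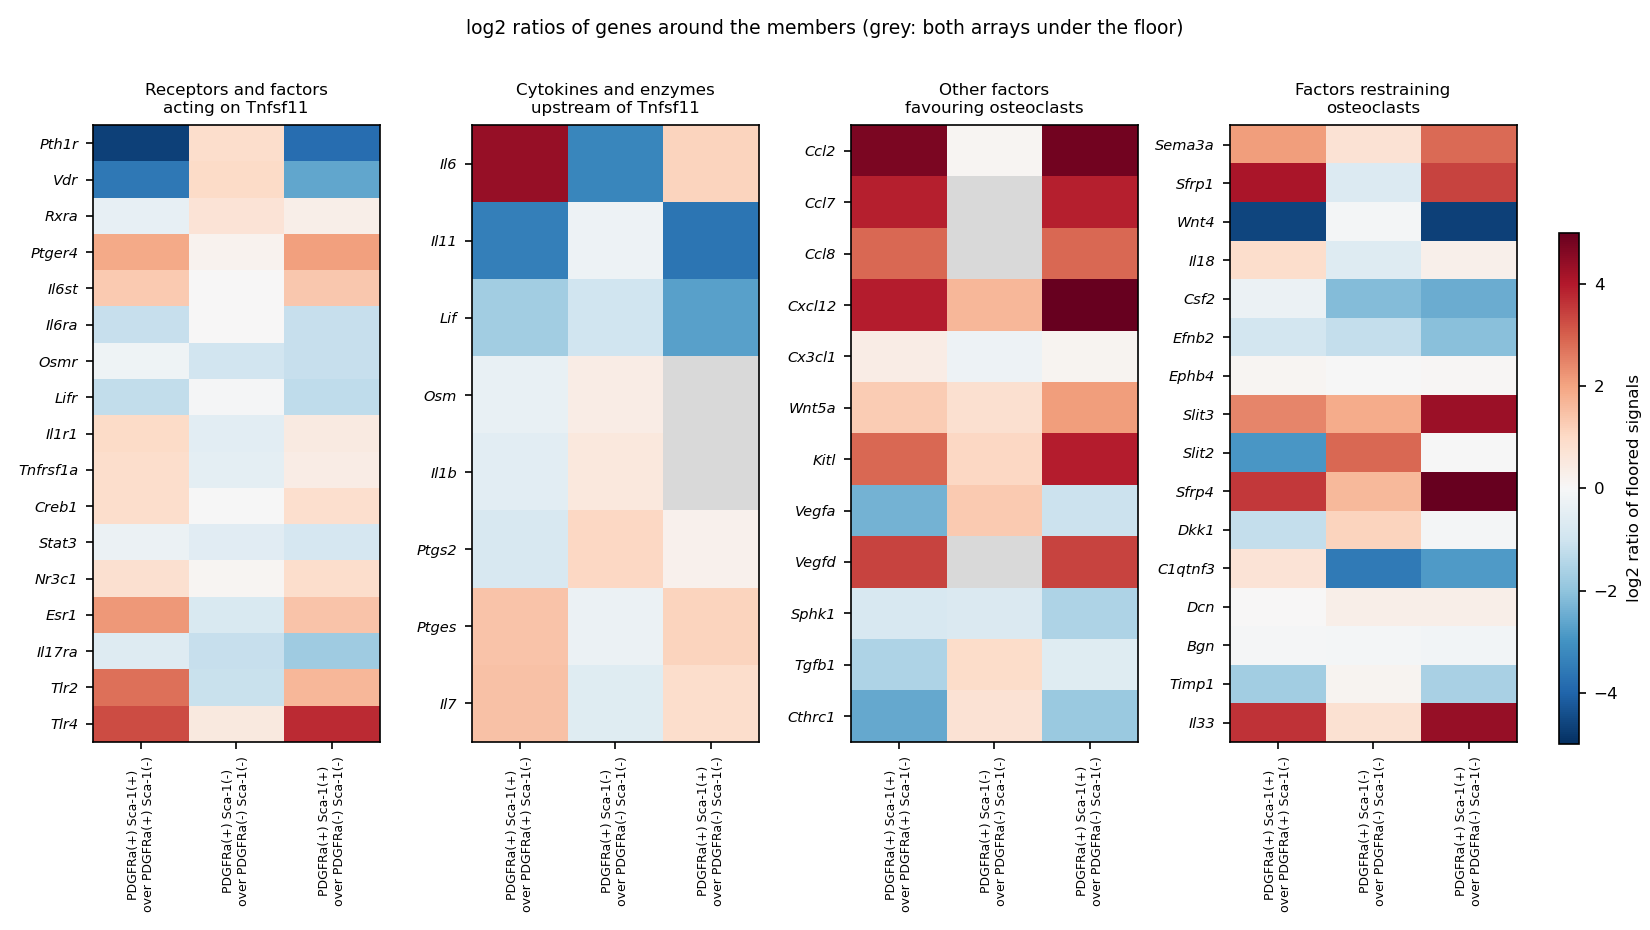
log2 ratio of floored signals (colour, red higher and blue lower in the population named first) for genes of 4 lists around the members that were above the floor on at least 1 array; columns are the 3 comparisons, and colours are capped at 5 in both directions. Pth1r, Vdr, Il11, Wnt4, Vegfa and Cthrc1 are lower and Il6, Ccl2, Cxcl12, Kitl, Sfrp1 and Il33 higher in PDGFRa(+) Sca-1(+) than in PDGFRa(+) Sca-1(-) cells.

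Other secreted factors that favour osteoclasts were mostly higher in PDGFRa(+) Sca-1(+) cells. Against PDGFRa(+) Sca-1(-) cells 7 of 12 were called higher and 3 lower, and the median log2 ratio was 2.08. Those lower were Cthrc1 (5.91-fold), Vegfa (5.12-fold) and Tgfb1 (2.88-fold). The monocyte chemokine gene Ccl2 was 25.9-fold higher, at 2617 against 101, and Ccl7 at least 14.6-fold higher. Cxcl12, which holds blood progenitors in marrow, was 15.4-fold higher, although its lowest probe set had a log2 ratio of 0.08. Vegfd, a growth factor of lymphatic vessels, was at least 10.4-fold higher. Between PDGFRa(+) Sca-1(-) and PDGFRa(-) Sca-1(-) cells 3 of 9 were called higher and 0 lower. They were Cxcl12 (3.18-fold), the angiogenic factor Vegfa (2.45-fold) and the stem cell factor gene Kitl (2.06-fold). The list's median log2 ratio there was 0.82. Ccl8 gave 681 in PDGFRa(+) Sca-1(+) cells and was under the floor in both Sca-1(-) populations, at 69.8 and 79.7.

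Factors listed as restraining osteoclasts had no common direction. The list holds the Wnt antagonist Dkk1, which may not restrain them. Dkk1 is counted below as lower in PDGFRa(+) Sca-1(+) than in PDGFRa(+) Sca-1(-) cells (at least 2.31-fold). It is also counted as higher in PDGFRa(+) Sca-1(-) than in PDGFRa(-) Sca-1(-) cells (2.16-fold). Of 16 compared between PDGFRa(+) Sca-1(+) and PDGFRa(+) Sca-1(-) cells, 5 were called higher and 4 lower, against 14.9% and 11.3% of all genes. The median log2 ratio was 0.04, which turned to -0.16 when the arrays were scaled to a common median. The Wnt antagonist Sfrp1, which also binds RANKL, was 16.8-fold, the alarmin gene Il33 12.2-fold and Sfrp4 11.7-fold higher in PDGFRa(+) Sca-1(+) cells. Wnt4 was at least 23.8-fold lower there, having given 2222 in PDGFRa(+) Sca-1(-) cells. Between PDGFRa(+) Sca-1(-) and PDGFRa(-) Sca-1(-) cells 4 of 16 were higher and 3 lower, with a median of 0.04. C1qtnf3, an adipokine gene, was 11.6-fold lower and Csf2, a cytokine that turns precursors away from the osteoclast fate, 4.46-fold lower, at 198 against 882. Slit2, a ligand of Robo receptors, was 7.36-fold higher by its brightest probe set, and Slit3 at least 3.61-fold higher.

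Proteases listed as releasing RANKL or CSF1 from the cell surface had a median log2 ratio of 0.75 in PDGFRa(+) Sca-1(+) over PDGFRa(+) Sca-1(-) cells. Of 7 genes compared, 3 were called higher and 0 lower. They were Adam19 (2.28-fold), the membrane-bound Mmp14 (2.24-fold) and Mmp2 (2.06-fold); 1 of 7 was still called with scaling to a common median, and the probe sets of Mmp14 ran from -0.30 to 1.60 on the log2 scale. Between PDGFRa(+) Sca-1(-) and PDGFRa(-) Sca-1(-) cells 1 of 7 was called, Adam10, 2.25-fold higher. In PDGFRa(+) Sca-1(+) over PDGFRa(-) Sca-1(-) cells Mmp14 (1.47-fold), Adam19 (1.37-fold) and Mmp2 (1.96-fold) were within 2-fold. There 2 of 7 were called higher, Adam10 (3.78-fold) and Adam17 (2.18-fold). Genes that carry the RANK signal inside the cell were within 2-fold for 13 of 18 in PDGFRa(+) Sca-1(+) over PDGFRa(+) Sca-1(-) cells and for 17 of 18 in PDGFRa(+) Sca-1(-) over PDGFRa(-) Sca-1(-) cells, with medians of 0.26 and -0.11. Of the 5 called between PDGFRa(+) Sca-1(+) and PDGFRa(+) Sca-1(-) cells, 4 were higher and 1 lower, against 14.9% and 11.3% of all genes. Among those higher, the probe sets of Ikbkg ran from -1.24 to 1.22 on the log2 scale. Those of Map3k7 ran from -0.79 to 1.37, of Ikbkb from -0.47 to 1.31 and of Gab2 from 0.09 to 1.20. Nfatc1, the transcription factor that directs osteoclast differentiation and is also used in other cells, was 2.64-fold lower in PDGFRa(+) Sca-1(+) than in PDGFRa(+) Sca-1(-) cells, at 2993 against 7890, but its 5 probe sets ran from -3.67 to 0.56 on the log2 scale.

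Markers of several cell types differed in the same comparisons as the members. Of all genes, 14.9% were called higher and 11.3% lower in PDGFRa(+) Sca-1(+) over PDGFRa(+) Sca-1(-) cells. In PDGFRa(+) Sca-1(-) over PDGFRa(-) Sca-1(-) cells the shares were 4.82% and 5.63%. Hypertrophic and prehypertrophic chondrocyte genes, a known source of RANKL, were called lower in PDGFRa(+) Sca-1(+) than in PDGFRa(+) Sca-1(-) cells for 8 of 8, with a median log2 ratio of -4.17, and higher in PDGFRa(+) Sca-1(-) than in PDGFRa(-) Sca-1(-) cells for 5 of 8, with a median of 1.55. The list holds Alpl, Mmp13 and Pth1r, which osteoblasts share. Its summed signals were 3389 in PDGFRa(+) Sca-1(+), 96400 in PDGFRa(+) Sca-1(-) and 40195 in PDGFRa(-) Sca-1(-) cells. Osteocyte markers were higher in PDGFRa(+) Sca-1(-) than in PDGFRa(-) Sca-1(-) cells for 3 of 7 and lower for 0, while in PDGFRa(+) Sca-1(+) over PDGFRa(+) Sca-1(-) cells 2 were higher and 3 lower, with a median of 0.06 that turned to -0.11 with scaling to a common median. Dmp1, a matrix protein of osteocytes, gave 12890 in PDGFRa(+) Sca-1(-) cells, against 426 in PDGFRa(-) Sca-1(-) cells, and Mepe, Sost and Fgf23 were under the floor on all arrays. Osteoblast markers were lower in PDGFRa(+) Sca-1(+) than in PDGFRa(+) Sca-1(-) cells for 7 of 10 and higher for 0, with a median of -3.13. Markers of marrow reticular and adipogenic stroma were higher in PDGFRa(+) Sca-1(+) than in PDGFRa(+) Sca-1(-) cells for 9 of 12 and lower for 1, with a median of 2.19; Cxcl12, Kitl and Il7 stand in this list and in those above. Those of synovial lining fibroblasts were higher for 7 of 8 and lower for 1, with a median of 2.25, and those of fibroblasts and adventitial stroma, Pdgfra among them, for 9 of 10 and lower for 0, with a median of 4.32. Vcam1, among the largest ratios of both, stands in the marrow reticular and in the synovial list. Genes of resting and proliferating chondrocytes were lower for 9 of 11 and higher for 0, with a median of -2.98. Of 8 endothelial markers 2 passed the floor in PDGFRa(+) Sca-1(+) cells, led by the angiopoietin receptor gene Tek at 888, 1 in PDGFRa(+) Sca-1(-) cells and 0 in PDGFRa(-) Sca-1(-) cells. Cell cycle genes were lower in PDGFRa(+) Sca-1(-) than in PDGFRa(-) Sca-1(-) cells for 7 of 9 and higher for 0; in PDGFRa(+) Sca-1(+) over PDGFRa(+) Sca-1(-) cells 1 of 7 was higher and 1 lower. Other lists leaned higher too in PDGFRa(+) Sca-1(-) over PDGFRa(-) Sca-1(-) cells. There 6 of 11 markers of marrow reticular and adipogenic stroma were called higher and 0 lower (median 1.04). For osteoblasts these counts were 4 and 1 of 10 (median 0.92), and for fibroblasts 3 and 0 of 6 (1.32). Synovial markers gave 1 and 1 of 7 (-0.24), and resting and proliferating chondrocyte genes 1 and 2 of 11 (-0.02). The part of these cell types in the Csf1, Tnfsf11 and Tnfrsf11b ratios was not tested.

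Genes with the most similar pattern over the 3 arrays were found by the distance between log2 signals centred on their mean. For Csf1 these were Pxdn, which cross-links basement membrane collagen (distance 0.04, signals of 2320, 259 and 320 in PDGFRa(+) Sca-1(+), PDGFRa(+) Sca-1(-) and PDGFRa(-) Sca-1(-) cells), the Wnt ligand gene Wnt9a (0.07) and the transcription factor gene Osr2 (0.07); 85 of 7330 genes lay within 0.5. Closest to Tnfrsf11b were Foxred1 (0.02), Gcc1 (0.04) and Lpin1 (0.05), a phosphatidate phosphatase, with 217 of 7330 within 0.5. For Tnfsf11 they were Tspyl1 (0.07), Zfp800 (0.08) and Specc1 (0.09), with 107 of 7331 within 0.5. With 3 points per gene many patterns coincide, and no shared function is read from them.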

How the data were processed

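MAS5 signal intensities of 45101 probe sets were deposited by the authors for 3 arrays, 1 per population; per the submitters' processing notes the tool was MAS5, with version, detection calls and filters not given in the sources used here. Per the labels' protocols, a two-cycle labelling kit was used. The 2% trimmed mean of the deposited values was 500 for every array, so they were already scaled.

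Here 64 control probe sets were set aside and each array was rescaled to a common 2% trimmed mean with Python 3.11.15, pandas 2.3.3 and scipy 1.17.1. Signals were raised to a floor of 93.2 before log2 was taken. Of the other probe sets, 34945 had 1 symbol, 932 several and 9160 none; the first gave 18193 genes, each represented by its probe set of highest average log2 signal. Of the probe sets with 1 symbol, 34741 matched RefSeq (GRCm38.p6) by gene number, with 0 symbols changed. A gene under the floor on both arrays was not compared. No test was possible with 1 array per population, and the number of arrays limits the precision. The counting was tested on simulated data.

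The members, the gene lists and the motifs were chosen with earlier results of these data known. List genes without a probe set of 1 symbol, such as Spp1, Runx2, Bglap, Pthlh and Nfkb1, are not analysed here. Named genes were all members and, per list and comparison, up to 4 genes with the largest called ratios and up to 2 bright genes within 2-fold; further list genes, such as those under the floor or shown to compare with a member, were chosen after their values were seen. For likeness, up to 3 genes per member were taken among those averaging 4 times the floor or more. Alternatives were floors at the 33rd and 67th percentiles, no floor with pseudocounts of 1 and 32, the mean over probe sets, quantile normalization, scaling to a common median, and a 3-fold threshold.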

Additional observations from a re-analysis of the deposited data

How the results depend on the processing

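The ratios of Csf1 and Tnfrsf11b kept their direction and their side of 2-fold in both comparisons with PDGFRa(+) Sca-1(+) cells under all alternatives run on them. For PDGFRa(+) Sca-1(+) over PDGFRa(+) Sca-1(-) cells the log2 ratio of Csf1 ran from 2.62 to 3.22 and that of Tnfrsf11b from -2.08 to -1.69. Tnfsf11 depended on its dim signals. With the floor at the 67th percentile, 256, its log2 ratio was -0.059 in place of -1.41 for PDGFRa(+) Sca-1(+) over PDGFRa(+) Sca-1(-) cells and 0.059 in place of 1.52 for PDGFRa(+) Sca-1(-) over PDGFRa(-) Sca-1(-) cells. With the mean over probe sets, which enters the other probe set at the floor, these were -0.71 and 0.76. Il34 had a log2 ratio of 1.53 for PDGFRa(+) Sca-1(+) over PDGFRa(+) Sca-1(-) cells with the floor at the 33rd percentile, 1.50 without a floor and a pseudocount of 1, and 1.06 with 32, in place of 0.42; its PDGFRa(+) Sca-1(-) signal lay under the floor. With the 33rd percentile floor Tnfrsf11a was at least 1.96-fold higher in PDGFRa(+) Sca-1(+) than in either Sca-1(-) population. The difference between Tnfsf11 and Tnfrsf11b was 1.85 for PDGFRa(+) Sca-1(+) over PDGFRa(+) Sca-1(-) cells and -0.26 for PDGFRa(+) Sca-1(-) over PDGFRa(-) Sca-1(-) cells with the 67th percentile floor, and 0.74 for the second with the mean over probe sets.

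In PDGFRa(+) Sca-1(-) over PDGFRa(-) Sca-1(-) cells the members called were 2 with the 33rd percentile floor, where Il34 was 2.06-fold lower, and 0 with the 67th percentile floor, the mean over probe sets or a 3-fold threshold, in place of 1. The genes called there were 753 with the 67th percentile floor, 777 with the mean over probe sets and 392 at 3-fold, in place of 1220. At 3-fold the counts were 1534 in place of 3103 for PDGFRa(+) Sca-1(+) over PDGFRa(+) Sca-1(-) cells and 1560 in place of 3156 for PDGFRa(+) Sca-1(+) over PDGFRa(-) Sca-1(-) cells. Of the other values recomputed, 67 log2 ratios, 17 differences and 39 counts moved by less than the scatter between probe sets or, for counts, by at most 1.5 times. No paired analysis was possible because each population had 1 array. Signals near the floor limit what can be said of Tnfsf11, Il34 and Tnfrsf11a.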
